A study of Mus musculus with 16 samples.

Results

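The genes described here are the 5 NF-κB subunits *Nfkb1*, *Nfkb2*, *Rela*, *Relb* and *Rel*, together with 5 genes whose products restrain or modify NF-κB, *Nfkbia*, *Nfkbib*, *Nfkbie*, *Nfkbiz* and *Tnfaip3*. They were taken by gene symbol, which gave 10 of the 54347 genes in the count table, and all 10 passed the filter on low counts that left 13150 genes for testing. The cells were wt1-SAM brown adipocytes, an immortalized mouse brown preadipocyte line with a stable CRISPRa SAM system. In SAM, a Cas9 without cutting activity brings activator proteins to the place in the genome that a single guide RNA (sgRNA) matches, which raises transcription there. Differentiation of all cells was induced with a hormone cocktail that also held the drugs rosiglitazone and IBMX. It contained dexamethasone and indomethacin, a pair of anti-inflammatory drugs. For the later medium changes the methods list rosiglitazone, at first with insulin, and neither of that pair. All cells were moved to fresh wells with transfection reagent and 250 ng of plasmid on day 4, and were harvested on day 7. The empty vector groups received the sgRNA vector without a guide, and the sgRNA groups received pSgRNA-MS2-2+7, a pair of plasmids with guides against the long noncoding RNA gene *Gm15551*. Each was left as control or given the β-adrenergic agonist isoproterenol at 1 µM for 24 h, which made 4 groups with 4 libraries each, numbered 3, 4, 5 and 6. The line is a single cell line, and neither the labels nor the methods say whether the numbers stand for separate cultures, so the p-values measure the spread between these libraries only.

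In resting cells, NF-κB dimers are held in the cytoplasm by IκB proteins such as IκBα, the product of *Nfkbia*. Cytokine and pattern-recognition receptors act through adaptors and ubiquitin enzymes on the IκB kinase complex, IκB is degraded, and the dimers enter the nucleus and activate inflammatory genes. Among these genes are *Nfkbia* and *Tnfaip3* themselves, which makes them negative feedback regulators. In adipocytes the pathway is best known for inflammatory cytokine responses. It is controlled mostly at the protein level, which mRNA counts do not measure.

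Feedback through κB sites is part of this background, so the sequence upstream of the members' RefSeq starts (build GRCm38.p6) was searched over 250 bases for a κB-type motif on both strands. It was written as GGG, any 2 bases, TT, any base and CC. Windows were given for 7 of the 10 members, 10 windows in all, and none for *Nfkb1*, *Relb* and *Nfkbiz*. A match lay in a window of 4 of the 7, *Nfkbia*, *Tnfaip3*, *Rel* and *Nfkb2*, and in 4.11% of all 32851 windows. A stretch of 30 bases around a match is shown for each of these 4, because they are the members whose windows hold the letters of a κB site. They are written 5′ to 3′ on the gene's strand, with the match in capitals, and a match on the opposite strand appears as the reverse complement of the motif.
*Nfkbia*: tgactggcttGGAAATTCCCcgcgcctgac
*Tnfaip3*: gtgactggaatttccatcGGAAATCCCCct
*Rel*: cgtaagcagcGGGAAATCCCcccccctccc
*Nfkb2*: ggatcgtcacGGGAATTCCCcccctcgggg
The *Nfkbia* stretch is chr12:55492657-55492686 (minus strand), with the match beginning 29 bases before the start, and no annotated gene covers it. The *Tnfaip3* stretch, chr10:19015411-19015440 (minus strand), has its match 12 bases before the start and lies in an intron of the longer *Tnfaip3* gene model of GENCODE. The *Rel* stretch, chr11:23771042-23771071 (minus strand), lies outside any annotated gene, with the match 92 bases before the start, and it overlaps a further match shifted by 1 base. The *Nfkb2* stretch, chr19:46304688-46304717 (plus strand), begins its match 39 bases before the start and lies in an exon of the GENCODE model of *Nfkb2* and of AC114539.1 on the opposite strand. *Nfkb2* had a further pair of overlapping matches 11 and 10 bases before this start and one 225 bases before another of its starts. TGACG, the core of the cAMP response element through which β-adrenergic signals reach many promoters, was found on either strand in *Nfkbib*, *Tnfaip3*, *Rel* and *Nfkb2*, again 4 of the 7, and in 17.8% of all windows. It was not found in the windows of *Nfkbia*, *Nfkbie* and *Rela*. For both motifs the members were counted by gene, some with several windows, and the shares by single window, so these are not directly comparable. The matches describe the letters only.

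The libraries held between 9053521 and 16546187 estimated counts. The counts of 1 ribosomal RNA gene made up 11.7% to 51.8% of these, and its share was higher with empty vector than with sgRNA in 8 of 8 pairs of libraries with the same number and treatment. Of 8 adipocyte markers, 8 were detected in every library, with a summed level of 12498 to 27203 CPM (counts scaled by library size and TMM). *Ucp1*, the uncoupling protein gene that marks brown fat, ranged from 0 to 15.5 CPM and rose under isoproterenol (log2 fold change 4.03, edgeR's quasi-likelihood test, Benjamini-Hochberg adjusted p = 7.36e-06). *Gm15551* ranged from 0.390 to 1.35 CPM in empty vector control and from 1.42 to 3.92 CPM in sgRNA control libraries, and from 0 to 0.421 and from 1.04 to 2.04 CPM under isoproterenol. Its level was higher with sgRNA in 8 of 8 pairs, by a log2 fold change of 2.37 (SE 0.39) that did not pass the threshold in edgeR's quasi-likelihood test (adjusted p = 0.0989) and passed it with the replicate number as a block (2.41, adjusted p = 0.00055). The sequence of guide 2 is shown because it ties the sgRNA groups to a place in the genome.
Gm15551-2: cacttccagttatataagcg
It lies at chr3:126669053-126669072 (GRCm38), 129 bases before the RefSeq start of *Gm15551*, in an intron of *Camk2d*, and is followed by TGG. The sequence of guide 7 was not found in the window around that start and is not placed here.

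Per exon length, *Nfkbia* was the most abundant member and *Nfkbie* the least. On a TPM scale computed here from the counts and merged GENCODE exon lengths, *Nfkbia* had a median of 131 over the 16 libraries (99.2 to 182.7). *Rela*, the main transactivating subunit, followed with a median of 32.0 (18.1 to 40.9), and the ranges of these 2 genes did not overlap. *Nfkb2*, the p100/p52 subunit, had a median of 14.4, *Nfkbib* 12.8, *Nfkbiz* 11.9 and *Tnfaip3* 10.8 on this scale. *Relb*, the usual partner of p52, had a median of 6.42, *Nfkb1*, the p105/p50 subunit, 5.16, and *Rel*, the subunit best known from lymphocytes, 2.73. *Nfkbie*, which encodes IκBε, had a median of 1.01 (0.307 to 1.68). Each other neighbouring pair in this order had overlapping ranges, *Nfkb2* and *Rela* and *Rel* and *Nfkbie* included. The order depends on the merged lengths, which count every annotated exon, whether or not these cells used it. They were 12061 bases for *Nfkb1* and 3885 for *Relb*. By CPM, without length, *Nfkb1* (18.7 to 28.1) lay above *Relb* (4.17 to 13.3). Exons of *Nfkb2* share 531 bases with AC114539.1 and 299 with *Psd* on the opposite strand, and exons of *Nfkbib* share 314 with *Ccer2* and 42 with *Sirt2*. Whether counting used the read strand was not stated, so reads of these genes cannot be told apart with certainty.

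**Figure D1:**
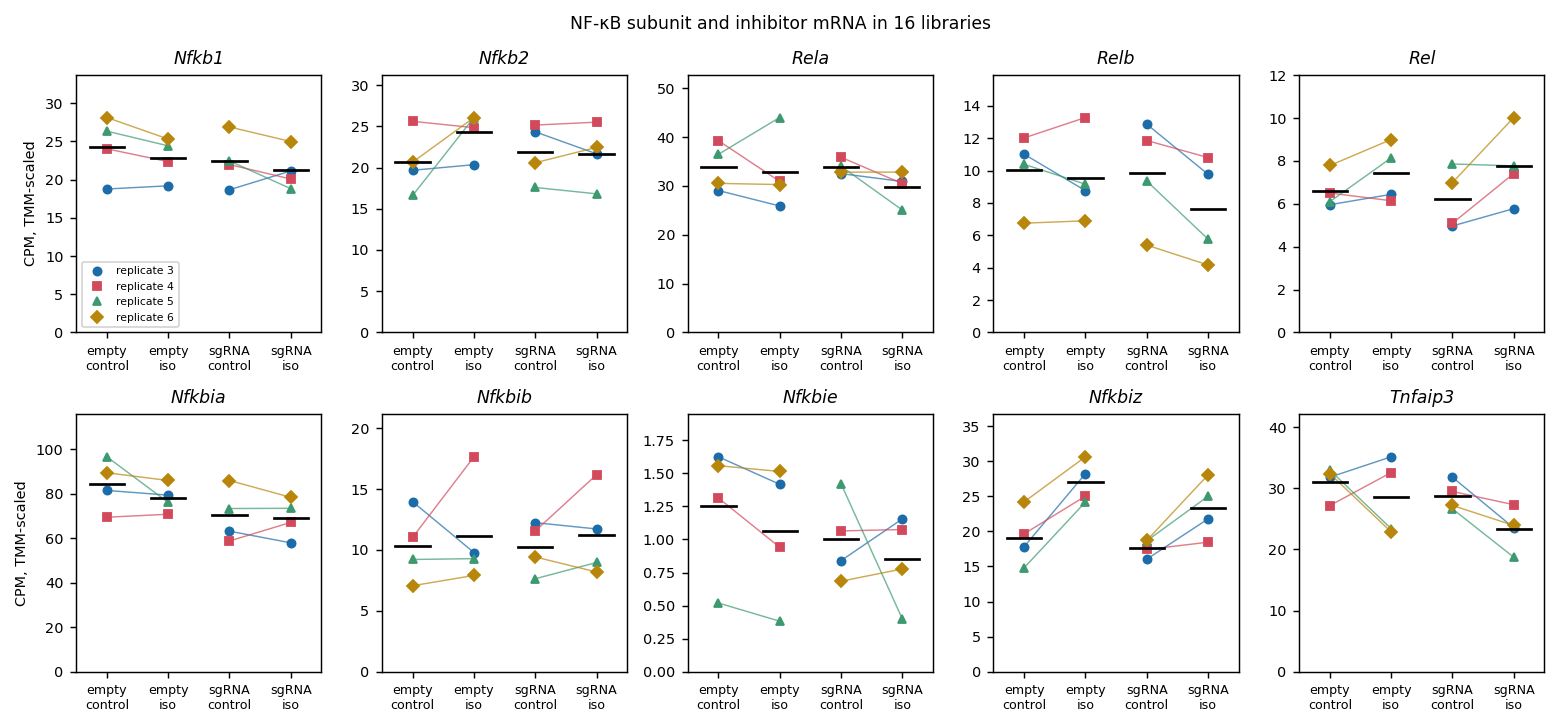
Level of each member in the 16 libraries (y axis, TMM-scaled CPM, from 0) by group (x axis), with 1 point per library, lines joining control and isoproterenol libraries of the same replicate number and plasmid, and black bars at group means. *Nfkbiz* rises along all 8 lines, and for *Relb* replicate 6 is the lowest point in all 4 groups.

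Isoproterenol was compared with control, averaged over both plasmids, to see whether β-adrenergic stimulation changed the mRNA of NF-κB components. *Nfkbiz* rose, by 1.36-fold, and was the only one of the 10 members to pass the threshold. This atypical nuclear IκB protein, IκBζ, does not hold dimers in the cytoplasm but acts in the nucleus as a coactivator of a subset of inflammatory genes such as *Il6*. Among all tested genes 4.49% passed the threshold in this comparison, 271 upwards and 319 downwards. The other members had log2 fold changes from −0.24 to 0.25, and the median of all 10 was −0.07, against 0.00466 over all tested genes.

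*Nfkbiz* (ENSMUSG00000035356, chromosome 16, 55811375 to 55838899, minus strand, 15 merged exons) was measured at 17.8, 19.6, 14.8 and 24.2 CPM in replicates 3, 4, 5 and 6 of the empty vector control group. In the empty vector libraries with isoproterenol it was at 28.2, 25.0, 24.2 and 30.6 CPM. In sgRNA cells the values were 16, 17.4, 18.6 and 18.7 CPM in control and 21.8, 18.4, 25.0 and 28 CPM with isoproterenol. Every isoproterenol library was above the control library of its own number and plasmid, 8 of 8 pairs, while the groups touched at their edges, with replicate 6 of the empty vector control as high as the lowest stimulated one and replicate 4 of stimulated sgRNA cells below the highest sgRNA control. Group means were 19.1 ± 3.93 and 27.0 ± 2.97 CPM (SD, n = 4) with empty vector, a ratio of 1.41, and 17.7 ± 1.26 and 23.3 ± 4.13 CPM with sgRNA, a ratio of 1.32. The averaged log2 fold change was 0.45 (SE 0.11, 95% interval 0.22 to 0.67, edgeR's quasi-likelihood test, Benjamini-Hochberg adjusted p = 0.0234). Isoproterenol accounted for 53.9% of the sum of squares of its log2 CPM, more than in any other member.

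The call lay close to the threshold in this fit. It was lost without any one of 4 of the 16 libraries, replicate 3 of either control group (adjusted p = 0.0529 with empty vector and 0.0601 with sgRNA) and replicate 6 of either isoproterenol group (0.0548 and 0.0517), and without replicate number 3, 4 or 5 (0.251, 0.071 and 0.0823), at log2 fold changes of 0.40 to 0.52. With the replicate number as a block, where 21.3% of all genes passed, it held (0.44, SE 0.08, adjusted p = 0.00088), also without any one number (adjusted p at most 0.0127), where 13.4%, 14.4%, 16% and 15.3% of all genes passed without number 3, 4, 5 or 6. *Cd68*, a macrophage and lysosome marker, also rose under isoproterenol (0.91, adjusted p = 0.00518), at 6.29 to 13.8 CPM in control and 13.1 to 22.3 CPM in isoproterenol libraries. It made up nearly all of the summed level of 9 immune cell markers, which was 6.66 to 14.1 and 13.9 to 22.5 CPM, and none of the others passed the filter on low counts. *Ptprc*, *Adgre1* and *Csf1r*, defining markers of this list, were each at 0 in at least 1 library and at most at 0.644 CPM. All 8 adipocyte markers had negative differences under isoproterenol (median −0.55, against 0.00466 over all tested genes), of which 3 fell past the threshold without the block and 6 with it. *Adipoq*, which encodes adiponectin, fell in 8 of 8 pairs (−1.06, adjusted p = 0.00222). Of 3 tested preadipocyte markers, *Ly6a* rose with the block (1.09, adjusted p = 4.92e-06, higher in 8 of 8 pairs). Of 5 tested brown adipocyte markers, *Ucp1* included, 4 had positive differences and 1 a negative one (median 0.71 without the block). Past the threshold, 2 of the 5 rose without the block and 4 with it. The part of these markers in the *Nfkbiz* result and in the changes of pathway genes was not tested, and in bulk RNA fewer cells of a type and less RNA per cell cannot be told apart.

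The subunit *Rel* had the next largest positive difference. It was at 5.96, 6.50, 6.10 and 7.79 CPM in empty vector control and at 6.44, 6.14, 8.14 and 9.0 CPM in empty vector isoproterenol libraries. In sgRNA cells it was at 4.97, 5.09, 7.86 and 6.99 CPM in control and at 5.77, 7.41, 7.77 and 10.0 CPM with isoproterenol. The groups overlapped, and 6 of 8 pairs were higher with isoproterenol. The log2 fold change of 0.25 (SE 0.14, 95% interval −0.06 to 0.55) did not pass the threshold (edgeR's quasi-likelihood test, adjusted p = 0.402), nor did it with the block (0.23, 95% interval 0.03 to 0.42, adjusted p = 0.0916).

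*Tnfaip3*, which encodes the ubiquitin-editing enzyme A20, a brake on the receptor complexes, had a negative difference. It was at 31.8, 27.2, 33.0 and 32.4 CPM in empty vector control and at 35.2, 32.6, 23.4 and 22.9 CPM in empty vector isoproterenol libraries. In sgRNA cells it was at 31.8, 29.5, 26.6 and 27.2 CPM in control and at 23.5, 27.3, 18.7 and 23.9 CPM with isoproterenol. With empty vector, replicates 3 and 4 were higher and replicates 5 and 6 lower under isoproterenol, while with sgRNA all 4 were lower. The log2 fold change of −0.21 (SE 0.10, 95% interval −0.43 to 0.0079) did not pass the threshold (edgeR's quasi-likelihood test, adjusted p = 0.302, with the block 0.0896 and an interval of −0.40 to −0.03). With the block and without replicate 4 it passed, at −0.32 (adjusted p = 0.0322).

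The remaining members did not pass the threshold with or without the block. The intervals that follow are from the fit without the block, where differences between replicate numbers remain in the error, unless the block is named. The canonical subunits *Nfkb1* and *Rela* had log2 fold changes of −0.08 (95% interval −0.30 to 0.13) and −0.11 (−0.33 to 0.10), each lower in 6 of 8 pairs. *Nfkb2* was at 0.11 (−0.13 to 0.34), and *Relb* at −0.22 with a wider interval (−0.69 to 0.25). With the block the interval of *Relb* was narrower, −0.44 to −0.00045 (edgeR's quasi-likelihood test with the block, adjusted p = 0.149). In that fit 4 of the 10 members had an unadjusted p under 0.05, as did 4399 of the 13150 tested genes. *Nfkbia*, at 57.9 to 96.6 CPM over all libraries the member with the highest counts, was at −0.07 (−0.26 to 0.13), so a change in its mRNA of the size found for *Nfkbiz* lay outside the interval. Of the other cytoplasmic inhibitors, *Nfkbib*, which encodes IκBβ, was at 0.13 (−0.29 to 0.55). Its sign was not stable, with −0.10 to 0.29 when libraries or replicate numbers were left out. *Nfkbie* was at −0.24 (−0.90 to 0.42) on 3 to 27 counts per library, the widest interval of the 10. With libraries or replicate numbers left out, its estimate ranged from −0.36 to −0.01.

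**Figure D2:**
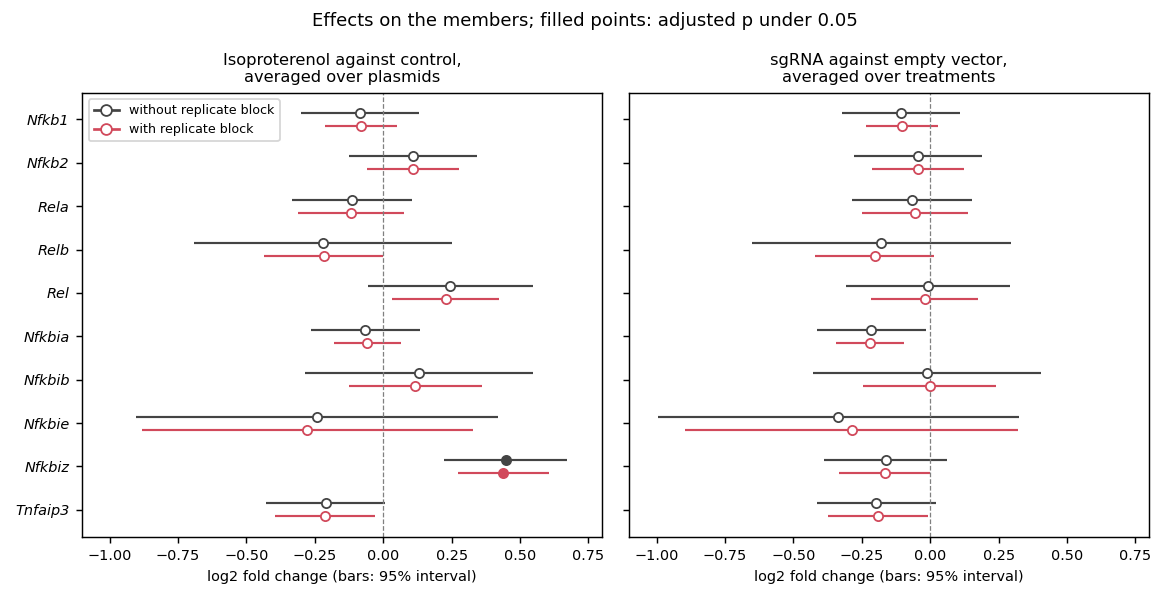
Log2 fold change of each member (x axis) for isoproterenol against control (left) and for sgRNA against empty vector (right), with 95% intervals as bars, without (grey) and with (red) the replicate number as a block. Filled points passed an adjusted p of 0.05, which are those of *Nfkbiz* at 0.45 and 0.44 under isoproterenol, and all sgRNA points lie below 0 in these 2 fits, while *Rela*, *Rel*, *Nfkbib* and *Nfkb2* turn above 0 under other settings or with libraries left out.

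The sgRNA against *Gm15551* was compared with empty vector, averaged over both treatments, to see whether activation of the locus changed the members. None of the 10 passed the threshold, and neither did any of the 13150 genes (0%) in edgeR's quasi-likelihood test, where 437 had an unadjusted p under 0.05, *Nfkbia* being the only member among them. DESeq2 without the block called 0 members and 0.0989% of all genes. The estimates of all 10 members were below 0, from −0.34 to −0.01 with a median of −0.13, beside 53.0% of all tested genes below 0 and a median of −0.01. The sign was not stable for members near 0, and *Rela*, *Rel* and *Nfkbib* were above 0 under another tool or filter or with a covariate, and *Nfkb2* was at up to 0.0302 when libraries were left out. With the block 0.586% of all genes passed, and no member.

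*Nfkbia* had the smallest p in this comparison. In replicates 3, 4, 5 and 6 of the empty vector control group it was at 81.5, 69.4, 96.6 and 89.4 CPM, and in sgRNA control libraries at 63.2, 58.8, 73.3 and 85.9 CPM. Under isoproterenol it was at 79.4, 70.8, 76.1 and 86.0 CPM with empty vector and at 57.9, 67.1, 73.4 and 78.4 CPM with sgRNA. The sgRNA library was the lower one in 8 of 8 pairs, by little in replicate 6 of the control cells and replicates 4 and 5 of the stimulated cells, and the groups overlapped.

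The group means of *Nfkbia* were 84.2 ± 11.6 against 70.3 ± 12.1 CPM in control and 78.0 ± 6.35 against 69.2 ± 8.83 CPM under isoproterenol (SD, n = 4). The ribosomal RNA share was 28.95% ± 12.8 and 36.8% ± 12.8 in the empty vector control and isoproterenol groups and 19.1% ± 1.11 and 21.1% ± 7.18 in the sgRNA groups.

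The log2 fold change of *Nfkbia* was −0.22 (SE 0.09, 95% interval −0.41 to −0.02, edgeR's quasi-likelihood test, adjusted p = 0.9997). With the block it was −0.22 (SE 0.06, adjusted p = 0.127), and DESeq2 with the block called it (−0.21, adjusted p = 0.0424), along with 1.14% of all genes. When the share of ribosomal RNA was added as a covariate, the estimate was −0.10 (adjusted p = 0.839). The part of that share in the difference was not tested further.

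*Tnfaip3*, the other feedback inhibitor, was at −0.20 (95% interval −0.42 to 0.02) and lower in 6 of 8 pairs, with an adjusted p of 0.412 with the block. *Nfkbiz* was at −0.16 (−0.39 to 0.06), also lower in 6 of 8 pairs. *Nfkb1* was at −0.11 (−0.32 to 0.11) and lower in 7 of 8 pairs. *Relb* was at −0.18 (−0.65 to 0.29) and *Nfkbie* at −0.34 (−1.0 to 0.32), the widest interval of the 10. With libraries or replicate numbers left out, the estimate of *Nfkbie* ranged from −0.56 to −0.08. *Rela* at −0.07, *Nfkb2* at −0.04, *Nfkbib* at −0.01 and *Rel* at −0.01 were nearest to 0, and of these *Rela*, *Nfkb2* and *Nfkbib* were each lower in 4 of 8 pairs. The largest fall that the interval of *Rela* allows is −0.28, and that of *Nfkb1* −0.32.

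Whether the isoproterenol effect differed between plasmids was tested by the interaction. No member and none of the 13150 genes passed (0%, with 52 genes at an unadjusted p under 0.05 in edgeR's quasi-likelihood test and 0 members, and again 0 members called by DESeq2). The differences ranged from −0.30 for *Relb* (95% interval −1.24 to 0.65) to 0.14 for *Rel* (−0.46 to 0.74). For *Nfkbiz* the difference was −0.10 (−0.55 to 0.35), an interval that on its negative side reaches past the size of the isoproterenol effect. With the block the share of genes passing was again 0%, with 199 at an unadjusted p under 0.05.

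The spread of the members' levels was divided among replicate number, which has 3 degrees of freedom, the treatments and their interaction, which have 1 each, and the remainder, so the shares of replicate number and of a treatment cannot be ranked directly. Replicate number accounted for 72.9% of the sum of squares of log2 CPM in *Relb*, 71.6% in *Nfkbib*, 65.5% in *Nfkb1* and 59.2% in *Rel*, and for 47.8% in *Nfkbia* and 45.8% in *Nfkb2*. In *Nfkbie* and *Rela* it accounted for 38.5% and 19.3%, and the remainder for 52.6% and 66.5%. In *Tnfaip3* replicate number had 21.2% and isoproterenol 22.4%.

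*Relb* was at 11.0, 12, 10.4 and 6.75 CPM in replicates 3, 4, 5 and 6 of the empty vector control group and at 8.76, 13.3, 9.16 and 6.90 CPM with isoproterenol. In sgRNA cells it was at 12.9, 11.9, 9.36 and 5.40 CPM in control and at 9.77, 10.8, 5.77 and 4.17 CPM with isoproterenol. Replicate 6 was the lowest in each of the 4 groups, with a mean of 5.80 ± 1.28 CPM (SD over its 4 libraries) beside 12 ± 1.01 CPM in replicate 4. *Nfkbib* had a similar order, with 14.1 ± 3.31 CPM in replicate 4 and 8.15 ± 0.978 CPM in replicate 6. *Rel* and *Nfkb1* were highest on average in replicate 6 and lowest in replicate 3, with 8.45 ± 1.34 CPM in replicate 6 and 5.79 ± 0.614 CPM in replicate 3 for *Rel*, and 26.3 ± 1.46 and 19.4 ± 1.15 CPM for *Nfkb1*. *Nfkbia* was at 84.9 ± 4.66 CPM in replicate 6 and 66.5 ± 5.39 CPM in replicate 4. What the numbers stand for is not given, so these differences cannot be tied to a named batch.

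**Figure D3:**
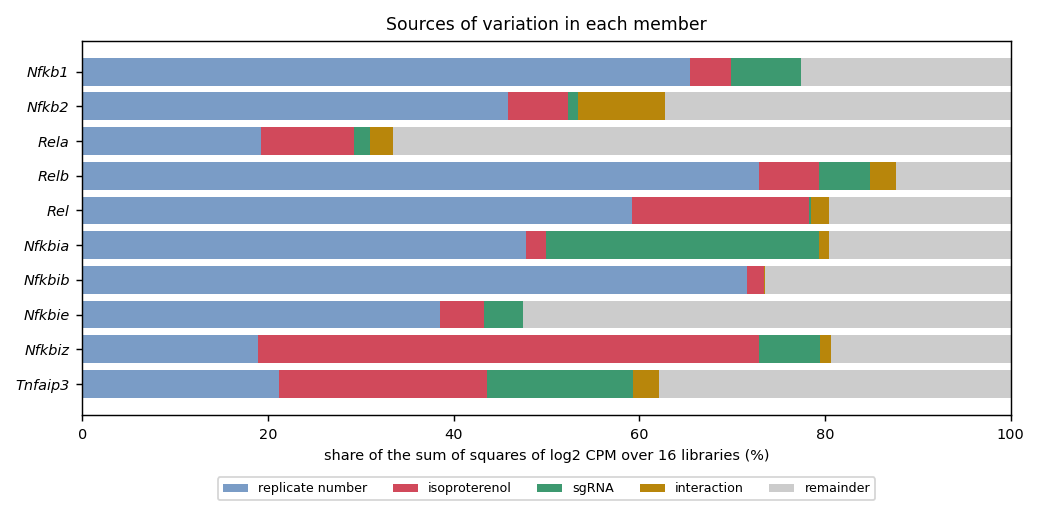
Share of the sum of squares of log2 CPM over 16 libraries (x axis, percent) that replicate number, isoproterenol, sgRNA, their interaction and the remainder take in each member, with 3 degrees of freedom for replicate number and 1 for each effect. Replicate number takes 72.9% in *Relb* and 18.9% in *Nfkbiz*, where isoproterenol takes 53.9%, and sgRNA has its largest share, 29.4%, in *Nfkbia*.

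The members stand between receptors and target genes, and 95 other genes of the pathway were grouped by role, of which 72 were tested. Without the block 3 of the 72 passed under isoproterenol, a share near the 4.49% of all tested genes, and all 3 were targets that rose. *Il6*, the gene of a cytokine, rose from 1.4 ± 0.597 to 6.98 ± 2.32 CPM with empty vector and from 0.908 ± 0.506 to 2.70 ± 1.10 CPM with sgRNA (SD, n = 4, log2 fold change 1.92, edgeR's quasi-likelihood test, adjusted p = 0.00145). *Ptgs2*, which encodes the prostaglandin-forming enzyme COX-2, rose from 18.9 ± 5.14 to 41.0 ± 10.5 CPM with empty vector and from 17.3 ± 3.22 to 29 ± 7.56 CPM with sgRNA (0.93, adjusted p = 0.00387). *Ier3*, an immediate early gene, rose by 0.68 on the log2 scale (adjusted p = 0.0209). All 3 were higher in 8 of 8 pairs.

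With the block 13 of the 72 passed upwards and 8 downwards under isoproterenol, beside 21.3% of all tested genes, 1433 upwards and 1366 downwards. The counts by role that follow are descriptions and were not compared with that share. Of 11 ligand genes only *Tnfsf12* was tested and it did not pass, and *Tnf* was at most at 0.152 CPM in any library. Of 10 tested receptors 3 rose and 0 fell, among them *Tnfrsf1b*, a TNF receptor (0.55, adjusted p = 0.000272), and *Il1rl1*, the interleukin-33 receptor (0.93, adjusted p = 0.00276, edgeR's quasi-likelihood test with the block). The level of *Il1rl1* was low, at 0.299 to 3.95 CPM. Of 27 adaptors and ubiquitin enzymes 4 rose and 2 fell, with *Irak3*, an inhibitor of interleukin-1 and Toll-like receptor signals, at 0.68 (adjusted p = 0.000336) and *Tnip1*, a binding partner of A20, at −0.47 (adjusted p = 0.00018). Of 11 kinase genes only *Ikbkg*, the regulatory subunit of the IκB kinase complex, passed, at 0.19 (adjusted p = 0.0197), a gene named here after its value was seen. Of the other IκB genes *Nfkbil1* was tested and did not pass, while *Bcl3* and *Nfkbid* were at most at 0.283 and 0.129 CPM.

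The target genes moved in both directions under isoproterenol with the block, 5 upwards and 6 downwards of 22 tested. Beside *Il6*, *Ptgs2* and *Ier3*, *Sod2*, the mitochondrial superoxide dismutase, rose (0.22, adjusted p = 0.00209, edgeR's quasi-likelihood test with the block). Those that fell included the complement genes *C3* (−0.70, adjusted p = 3.11e-05) and *Cfb* (−0.50, adjusted p = 0.00495), the acute-phase gene *Saa3* (−0.60, adjusted p = 0.00321) and the metalloreductase gene *Steap4* (−0.70, adjusted p = 0.000226). The median of the 22 was 0.14.

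For the sgRNA, 0 of the 72 pathway genes passed without the block (17 at an unadjusted p under 0.05, and 3 called by DESeq2, beside 0.0989% of all genes), and 0 passed upwards and 10 downwards with it, beside 0.586% of all tested genes. Without replicate number 3, 4, 5 or 6 the count with the block was 6, 6, 7 and 5, beside 0.247%, 0.181%, 0.265% and 0.161% of all genes. Some of the genes below thus lost their call when a number was left out. The share of all genes fell as well, so reliance on single numbers and the smaller set of libraries cannot be told apart. Of the 10, 9 were targets, and the median over the 22 tested targets was −0.46, with 19 below 0. The 3 above 0 were *Cxcl10* (0.65), *Vcam1* (0.31) and *Gadd45b* (0.15) with the block. None of these passed, and they are named here after their values were seen. *Saa3* had the largest difference, from 106.3 ± 31.1 to 35.5 ± 9.25 CPM in control and from 81.7 ± 47.3 to 23.6 ± 13.1 CPM in isoproterenol groups (SD, n = 4, log2 fold change −1.67 with the block, edgeR's quasi-likelihood test, adjusted p = 1.19e-05). The neutrophil chemokine genes *Cxcl1* and *Cxcl5* were at −1.01 (adjusted p = 0.000672) and −1.37 (adjusted p = 0.00492), and the monocyte chemokine gene *Ccl7* was at −0.80 (adjusted p = 0.0499). Over all libraries *Cxcl1* ranged from 19.5 to 98.3 CPM and *Cxcl5* from 0.304 to 11.0 CPM, so the lowest *Cxcl5* values rest on few counts. *Lcn2*, which encodes the iron-chelating lipocalin-2, was at −0.83 (adjusted p = 0.001), *Cfb* at −1.0 (adjusted p = 0.000475), *Il6* at −1.01 (adjusted p = 0.0371), *Steap4* at −0.53 (adjusted p = 0.0354) and *Sod2* at −0.26 (adjusted p = 0.011). The exception among the 10 was *Irak3*, an adaptor-level gene, at −0.86 (adjusted p = 0.001). *Saa3* and *Lcn2* are among the genes that the study singled out in these cells, so their direction is not independent evidence. The pathway lists as a whole were chosen with earlier results of these data known. The count of 10 and the direction of the targets are therefore descriptions and not independent evidence either. The groups hold no sgRNA against another locus, so an effect of these guides and one of any guide in this line cannot be told apart. As above, the ribosomal RNA share moved with the plasmid. With that share as a covariate and without the block 1 of the 72 passed, beside 0.0304% of all genes. Of 3 tested preadipocyte markers, 1 fell with the sgRNA in the fit with the block, *Ly6a* (−0.74, adjusted p = 0.00491, lower in 8 of 8 pairs), and of 5 tested brown adipocyte markers 1 rose, *Cidea* (1.05, adjusted p = 0.0348, higher in 8 of 8 pairs). Their part in the target genes' differences was not tested.

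**Figure D4:**
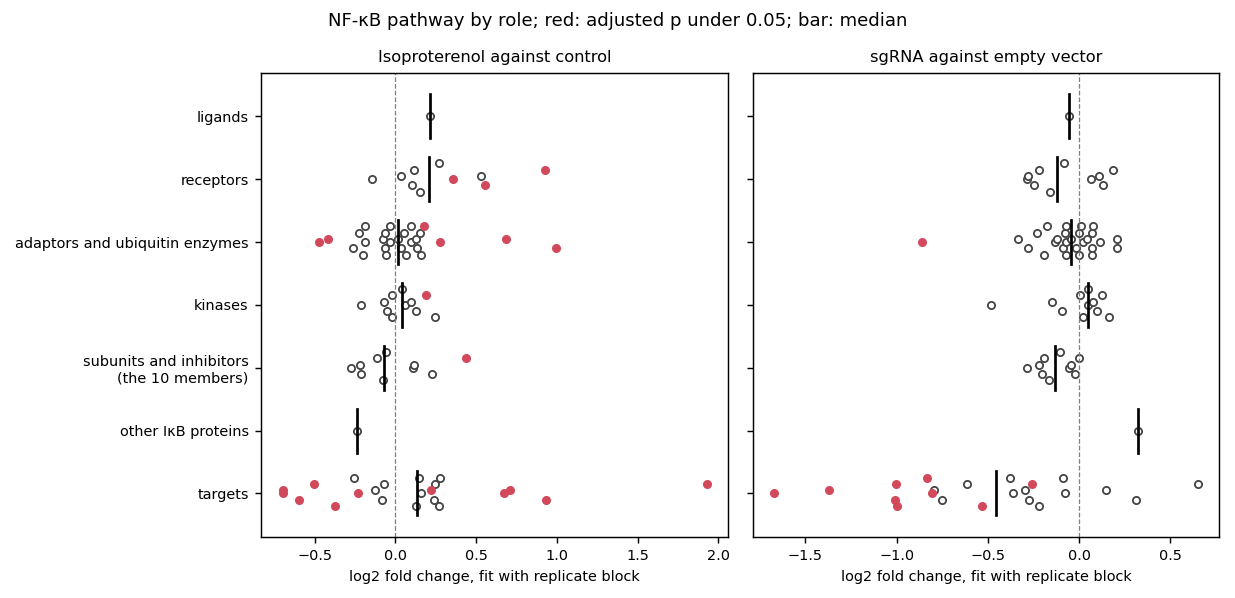
Log2 fold changes from the fit with the replicate block (x axis) for tested NF-κB pathway genes by role (rows), under isoproterenol (left) and sgRNA (right), with 1 point per gene, red where the adjusted p was under 0.05 and a bar at each role's median. Target genes spread widely on both sides under isoproterenol and lie mostly below 0 with sgRNA, with a median of −0.46, while the 10 members stay between −0.29 and 0.44.

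For the members with the smallest p in either comparison, the tested genes most like them over the 16 libraries were listed by Pearson's r of log2 CPM, as a description, since the libraries share groups and replicate numbers. For *Nfkbiz* these were *Fmnl2* (r = 0.933), *Hspa4l* (r = 0.927) and *Gcnt2* (r = 0.922). For *Nfkbia* they were *Cdc25c* (r = 0.892), *Car13* (r = 0.870) and *Rfc5* (r = 0.866). They are the highest of 13150 genes, and a high r among so many genes is found by selection.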

How the data were processed

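Polyadenylated RNA of wt1-SAM brown adipocytes was sequenced in 16 libraries, grouped by the sample titles into 4 groups of 4. Per the labels and methods, the authors quality-filtered the reads by cutadapt, used salmon for quantification on a GENCODE transcriptome of GRCm38, and deposited estimated counts per gene as whole numbers, neither normalized nor filtered. The versions of these tools and whether read strand was used are not given in the sources used here. Salmon divides reads shared by similar transcripts, so the counts of paralogs are less certain.

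Counts were tested in R 4.3.3 with edgeR 4.0.16 (filterByExpr with minimum count 10 and minimum total 15, TMM scaling, glmQLFit on the 4 group means, two-sided glmQLFTest, Benjamini-Hochberg adjustment over 13150 genes, threshold 0.05). The contrasts were isoproterenol and sgRNA, each averaged over the other factor, and their interaction. CPM are TMM-scaled, and log2 CPM used a prior count of 2. Levels per length used the GENCODE M21 annotation, to which 54094 of 54347 genes matched, while the authors used another release. Depth limits cover counting error only, and 3 counts in a library correspond to 0.166 to 0.390 CPM. The code was tested on simulated data.

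Libraries of the same replicate number deviated together from their group means (r = 0.22 to 0.61 in 24 pairs, against a median of −0.21 for different numbers and groups), so the numbers were treated as pairing, and the fit with the number as a block is given where it changes a result. Alternatives were that block, DESeq2 1.42.0 with and without it, no filter, the ribosomal RNA gene left out or its share as a covariate, an added bound of 0.5 on the absolute log2 fold change, and leaving out libraries or replicate numbers.

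All members are named. Of the pathway lists, up to 12 genes per comparison with the smallest p among those called in either fit are named, and for the member with the smallest p in the isoproterenol and the sgRNA comparison the 3 genes most like it. The members and lists were chosen with earlier results of these data known. Promoter windows and the guide's position came from RefSeq on GRCm38.p6, and guide sequences from the study's supplement. The values of 1 marker gene are not reported here.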

Additional observations from a re-analysis of the deposited data

How the results depend on the processing

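Under isoproterenol, 1 member was called, and 0 to 1 when libraries or replicate numbers were left out, 0 with the bound of 0.5 on the log2 fold change, and 2 with the replicate block and without replicate 4. Of the pathway genes 3 were called, 1 to 5 with libraries left out, 21 with the replicate block (21.3% of all genes passed), 8 with DESeq2 (7.4%), 21 with DESeq2 and the block (20.8%), 6 with the ribosomal RNA share as covariate (6.68%), and 17, 17, 17 and 15 with the block and without replicate 3, 4, 5 or 6 (13.4%, 14.4%, 16% and 15.3%). For the sgRNA, 0 members were called, 0 with any library left out and 1 by DESeq2 with the block. Pathway genes numbered 0, and 0 to 1 with libraries left out, 10 with the block (0.586% of all genes passed), 3 with DESeq2 (0.0989%), 13 with DESeq2 and the block (1.14%), 3 without a filter (0.0287%), 1 with the covariate (0.0304%), and 6, 6, 7 and 5 with the block and without replicate 3, 4, 5 or 6 (0.247%, 0.181%, 0.265% and 0.161%). Settings that involve the block and a left-out number, and those for pathway genes, were chosen after seeing the data. The cause was not tested for any of these shifts.

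The sign of the sgRNA effect turned for *Rela* with the covariate (0.0304), for *Rel* with DESeq2 (0.00014), no filter (0.0203) and the covariate (0.0805), and for *Nfkbib* with DESeq2 and the block (0.00796) and no filter (0.0093). That of the interaction turned for *Nfkb1* with DESeq2 (−0.0048), DESeq2 and the block (−0.0016), no filter (−0.0034) and the ribosomal RNA gene left out (−0.0049), for *Nfkbib* with the covariate (−0.15), and for *Nfkbie* with the block (−0.0474), DESeq2 and the block (−0.0924) and the covariate (−0.19). Leaving out libraries or numbers turned 11 of 30 member effects, which then ranged from −0.10 to 0.29 for isoproterenol and *Nfkbib*, and for the sgRNA from −0.12 to 0.0302 for *Nfkb2*, −0.15 to 0.0761 for *Rela*, −0.0817 to 0.0563 for *Rel* and −0.12 to 0.15 for *Nfkbib*. For the interaction they ranged from −0.0815 to 0.11 for *Nfkb1*, −0.23 to 0.0756 for *Rela*, −0.0035 to 0.35 for *Rel*, −0.0076 to 0.19 for *Nfkbia*, −0.21 to 0.36 for *Nfkbib* and −0.22 to 0.44 for *Nfkbie*. None of these turned effects passed the threshold. In edgeR on all libraries the replicate block changed no call of a member. Depth limits *Nfkbie* most, at 3 to 27 counts per library.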
